A study of Mus musculus with 20 samples.

Results

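The NADPH oxidase subunit genes described here are Cybb, Cyba, Ncf1, Ncf4, Nox4 and Rac2, chosen by symbol, 6 of the 47069 Ensembl genes that were counted. All 6 were found once in both the count table and the FPKM table, and all 6 passed the filter on low counts. The RNA came from whole kidneys of 20 male mice killed at 15 weeks, and all carried a mixed 129SJ x C57Bl/6J background. The 5 WT mice were untreated mice of WT genotype, and the other 15 were F1-Col4a3-/- mice, which lack the α3 chain of type IV collagen in every cell and are used as a model of Alport syndrome. From 5 weeks of age, 6 of these (Veh) received weekly subcutaneous PBS, 6 (Anti-miR-21) were given lademirsen under the skin each week at 50 mg/kg in PBS, an oligonucleotide that blocks miR-21, and 3 (ACEi) received the ACE inhibitor ramipril in drinking water at 11 mg/L, with PBS injections as well per the study's methods. Each library is 1 mouse and is named by its replicate name, such as A3.

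NADPH oxidases are membrane enzymes that pass electrons from NADPH to oxygen and so make superoxide or hydrogen peroxide. In phagocytes, the enzyme is assembled on demand. The catalytic subunit gp91phox (Cybb) sits in the membrane with p22phox (Cyba), and cytosolic subunits, among them p47phox (Ncf1), p40phox (Ncf4) and the small GTPase Rac2, move to it. Nox4 is abundant in kidney tubule cells. It needs p22phox but none of the cytosolic subunits, and it makes mainly hydrogen peroxide. Rac2 is largely restricted to blood cells, while its relative Rac1 is found in most cells.

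The genes lie apart on GRCm38. Cybb (ENSMUSG00000015340) is at chrX:9435252-9487771 on the minus strand, Cyba (ENSMUSG00000006519) at chr8:122424776-122432930 on the minus strand, Ncf1 (ENSMUSG00000015950) at chr5:134220053-134229625 on the minus strand and Nox4 (ENSMUSG00000030562) at chr7:87246096-87398710 on the plus strand. Ncf4 (ENSMUSG00000071715), at chr15:78244801-78262580 on the plus strand, and Rac2 (ENSMUSG00000033220), at chr15:78559167-78572783 on the minus strand, share a chromosome. In the GENCODE annotation, 1 gene on the opposite strand overlaps Cyba and 1 overlaps Ncf1, and the authors marked both as confounded with other genes in the FPKM annotation. Whether the counting used strand is not given in the sources used here, so for Cyba and Ncf1 reads of the partner gene cannot be told apart.

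The oligonucleotide acts on miR-21, whose mature mouse sequence in RefSeq (miR-21a-5p, GRCm38.p6, chr11:86584120-86584141, minus strand) is shown with its seed, bases 2 to 8, in capitals.
miR-21a-5p: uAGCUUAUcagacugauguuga
The reverse complement of this seed (ATAAGCT) was searched on the sense strand in the longest annotated 3′ UTR of each gene, and none of the 6 subunit genes held it, while 7.19% of 21005 genes with a 3′ UTR did. Among Rac1, Hvcn1 and Cybc1, other oxidase genes given in full here, Cybc1 alone held 1 match. Cybc1 encodes the chaperone that stabilises gp91phox and p22phox. The match, in capitals, lies in the 3′ UTR of Cybc1 at chr11:121223783-121223804 of GRCm38 on the minus strand.
Cybc1 site: acagcctggtctggATAAGCTc
This search was added after the values were seen, and a match is a description of the letters, not a site in use.

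Promoters were held in the RefSeq table (GRCm38.p6) for 4 of the 6 genes, Cybb, Cyba, Ncf1 and Nox4. The 250 bases before the start are shown for Cybb and Ncf1, which were both higher in Veh than in WT kidney, and for Nox4, which was lower. Capitals mark CCAAT, a box that was added to the search after the sequences were read.
Cybb: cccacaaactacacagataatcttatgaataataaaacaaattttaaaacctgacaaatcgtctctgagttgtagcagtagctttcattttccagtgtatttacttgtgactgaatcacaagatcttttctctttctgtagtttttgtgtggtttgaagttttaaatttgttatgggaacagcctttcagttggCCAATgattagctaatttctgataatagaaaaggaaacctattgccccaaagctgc
Ncf1: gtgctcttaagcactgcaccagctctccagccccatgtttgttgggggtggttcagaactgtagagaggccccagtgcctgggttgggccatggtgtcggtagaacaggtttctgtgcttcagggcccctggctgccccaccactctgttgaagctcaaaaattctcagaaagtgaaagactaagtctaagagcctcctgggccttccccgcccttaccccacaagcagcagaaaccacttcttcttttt
Nox4: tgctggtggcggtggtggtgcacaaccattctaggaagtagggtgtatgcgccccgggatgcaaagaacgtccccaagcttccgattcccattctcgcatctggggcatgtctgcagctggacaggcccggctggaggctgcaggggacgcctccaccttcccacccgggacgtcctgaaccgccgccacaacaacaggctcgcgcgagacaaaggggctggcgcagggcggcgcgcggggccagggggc
These windows are at chrX:9469325-9469574 on the minus strand for Cybb, chr5:134229626-134229875 on the minus strand for Ncf1 and chr7:87246399-87246648 on the plus strand for Nox4. Those of Cybb and Nox4 lie inside the wider GENCODE genes. GC content was 34% for Cybb, 54.4% for Ncf1 and 67.2% for Nox4. The exact letters GAGGAA, a form of the site bound by the myeloid factor PU.1, were found on neither strand in any of the 4 promoters. The same letters were held by 23.3% of 32851 promoters of this length. Shorter or other forms of the site were not searched, so the absence of a PU.1 site is not shown. CCAAT on either strand was found in Cybb alone of the 4, and in 33.8% of all promoters.

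The libraries were alike in depth, with 28474301 to 29479629 counts on genes per mouse. Col4a3 itself was lower in every Col4a3-/- mouse (27.9 to 74.9 CPM) than in every WT mouse (194 to 238 CPM), in CPM, which are counts scaled to a common library size with TMM factors. The proximal tubule markers, 6 of 6 of them detected, summed to between 1418 and 16520 CPM in every mouse, although 1 label on extraction names adipose tissue. Adipocyte markers summed to over 50 CPM in 3 Veh mice (A1, A4 and A9) and 1 Anti-miR-21 mouse (A12), and to at most 19.7 CPM in all others. Sequencing used 2 flow cells, A for 13 libraries and B for the other 7. Flow cell A held 3 WT, 4 Veh, 5 Anti-miR-21 and 1 ACEi libraries, and B held 2 WT, 2 Veh, 1 Anti-miR-21 and 2 ACEi. The treatments were thus split unevenly over the flow cells. Values per mouse are shown in the plot of CPM of the 6 subunit genes.

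**Figure D1:**
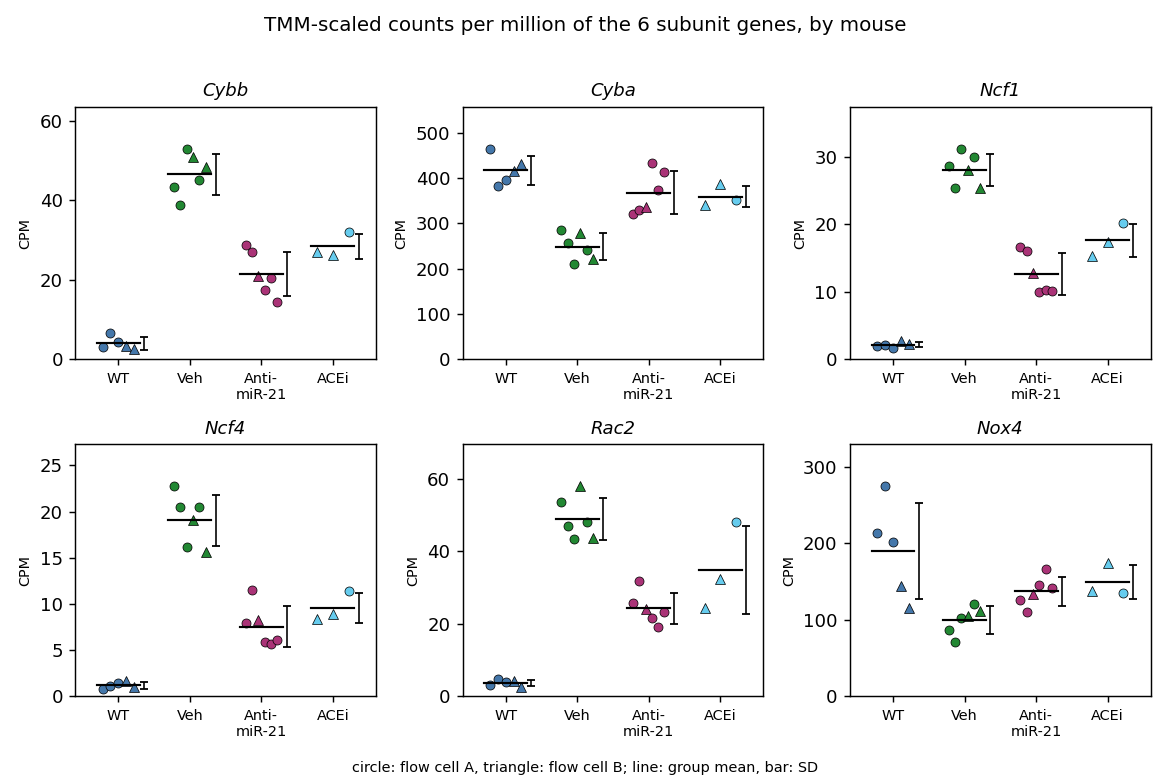
CPM (TMM-scaled counts, linear axis from 0) of the 6 subunit genes, 1 point per mouse, for 5 WT, 6 Veh, 6 Anti-miR-21 and 3 ACEi mice, with the group mean (line) and SD (bar). Cybb, Ncf1, Ncf4 and Rac2 are lowest in WT and highest in Veh, with the treated mice between except for Rac2 in A23, whereas Cyba is lowest in Veh; Nox4 in WT splits by flow cell, at 201.6 to 275 CPM on flow cell A (circles) and 115 to 144 CPM on flow cell B (triangles).

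The level of each gene was first compared per length, with the FPKM deposited by the authors. In WT kidney, p22phox and Nox4 RNA stood far above the phagocyte subunits. Cyba had 455 ± 24.8 FPKM (SD, n = 5) and Nox4 44.4 ± 12.9 FPKM (SD, n = 5). Rac2 had 1.003 ± 0.275 FPKM, Cybb 0.688 ± 0.30 FPKM, Ncf4 0.682 ± 0.26 FPKM and Ncf1 0.641 ± 0.13 FPKM (SD, n = 5), and each of these neighbours overlapped the next.

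In Veh kidney the order of the first 3 was the same, but the gap had narrowed. Cyba had 408 ± 43.6 FPKM and Nox4 35.7 ± 5.65 FPKM (SD, n = 6). The phagocyte subunits lay at 20.1 ± 1.77 FPKM for Rac2, 16.5 ± 2.71 FPKM for Ncf4, 12.8 ± 1.28 FPKM for Ncf1 and 12.2 ± 1.34 FPKM for Cybb (SD, n = 6), again each overlapping the next. The mean of Nox4 was 64.6 times that of Cybb in WT, 2.92 times in Veh, 8.54 times with anti-miR-21 and 7.08 times with ACEi. With FPKM recomputed from the counts and GENCODE exon lengths, these ratios were 32.9, 1.47, 4.30 and 3.59. In Veh, Rac2 then stood above Nox4 with overlapping mice. The mean of Cyba was above all others, and that of Nox4 above Cybb, Ncf1 and Ncf4, in every group on both gene models. The FPKM annotation gives no exon length and no mark for Cybb, so the length behind its deposited FPKM is unknown. The move of the ratio lay mainly in Nox4, however. On recomputing, the WT mean of Nox4 went from 44.4 to 18.3 FPKM, and that of Cybb from 0.688 to 0.556 FPKM.

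**Figure D2:**
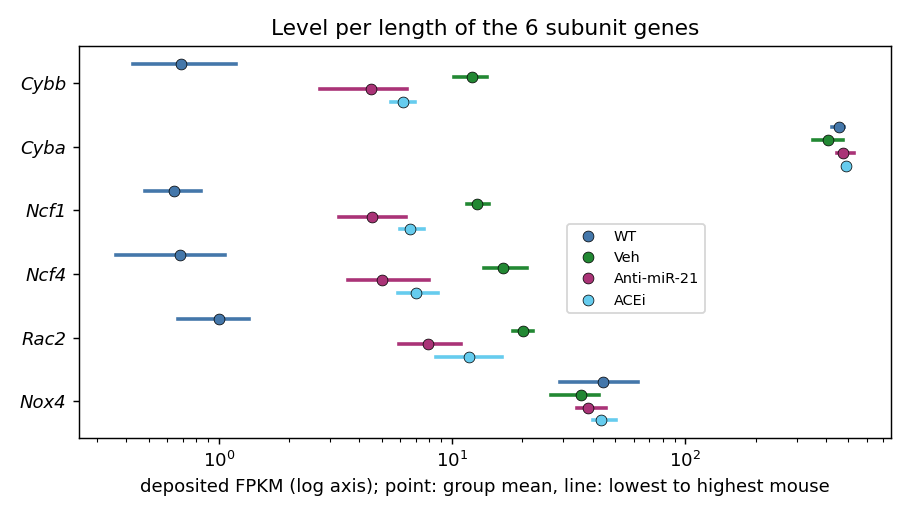
Deposited FPKM (log axis) of the 6 subunit genes in the 4 groups, with the group mean (point) and the range from the lowest to the highest mouse (line). Cyba lies between 353 and 526 FPKM in every mouse and Nox4 between 26.6 and 62.6 FPKM, while Cybb, Ncf1, Ncf4 and Rac2 reach at most 1.34 FPKM in WT and are at 10.2 FPKM or more in Veh.

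The comparison of Veh with WT asks what the disease changed without a drug. Veh mice had PBS injections and WT mice were untreated, so genotype and injection cannot be told apart here. The 4 phagocyte genes rose 11.8- to 15.96-fold, and Cyba and Nox4 fell to 0.595 and 0.525 of their WT level. All 6 genes thus passed the threshold, where 73% of the 17622 genes tested were called in this comparison (39% higher and 34% lower). In 5 of the 6 the mice of both groups were fully separate, which held for 54.9% of all genes tested. The median log2 fold change was 3.65 over the 6 genes, and 0.07 over all genes tested. All tests are edgeR's quasi-likelihood test with Benjamini-Hochberg adjustment over the 17622 genes, and changes are log2 fold changes of TMM-scaled counts with the standard error (SE).

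Cybb, the catalytic subunit, had 2.94, 6.60, 4.31, 3.35 and 2.47 CPM in the WT mice A3, A6, A14, A17 and A18. In the 6 Veh mice it ran from 38.7 through a median of 46.8 to 52.9 CPM. Every Veh mouse lay above every WT mouse, with a log2 fold change of 3.56 (SE 0.22, adjusted p = 2.3e-11), which is 11.8-fold.

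Ncf1, the organiser that carries the other cytosolic subunits to the membrane, had 2.004, 2.01, 1.60, 2.66 and 2.22 CPM in the same WT mice. The Veh mice had 25.3 to 31.1 CPM, with a median of 28.3 CPM. WT mice were tight and low and no Veh mouse came near them, with a log2 fold change of 3.74 (SE 0.16, adjusted p = 6.1e-13).

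Ncf4, which binds the lipid phosphatidylinositol 3-phosphate on phagosomes, had 0.757, 1.148, 1.39, 1.64 and 1.01 CPM in WT, from 17 to 40 counts. The Veh mice had 15.6 to 22.7 CPM, with a median of 19.8 CPM. The groups did not overlap, and its log2 fold change of 4.0 (SE 0.22, adjusted p = 5.2e-12) was the largest among the 6 genes by value, although its 95% interval, 3.55 to 4.45, overlapped those of Cybb, Ncf1 and Rac2.

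Rac2, the GTPase that switches the assembled enzyme on, had 3.07, 4.80, 3.89, 4.13 and 2.47 CPM in WT. The Veh mice had 43.5 to 57.9 CPM, with a median of 47.6 CPM. The groups did not overlap, with a log2 fold change of 3.73 (SE 0.19, adjusted p = 2.9e-12).

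Cyba, the membrane partner shared by gp91phox and Nox4, went the other way. It had 465, 383, 395, 416 and 431 CPM in WT and 210 to 286 CPM in Veh, with a median of 248 CPM. Every Veh mouse lay below every WT mouse, with a log2 fold change of −0.75 (SE 0.09, adjusted p = 5.0e-07).

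Nox4 had 214.2, 275 and 201.6 CPM in the WT mice of flow cell A, and 144 and 115 CPM in those of flow cell B. The Veh mice had 71.0 to 121 CPM, with a median of 104 CPM, so the lowest WT mouse lay within the Veh range. Its log2 fold change was −0.93 (SE 0.18, adjusted p = 7.9e-05). Within flow cell A alone it was −1.27 (adjusted p = 1.9e-05), and within flow cell B alone −0.26 (adjusted p = 0.21), with 2 WT and 2 Veh mice.

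All of these sizes rested on the scaling between libraries, and so did the call for Nox4 and, narrowly, that for Cyba. TMM factors were 0.771 to 0.850 in WT and 1.12 to 1.26 in Veh. With library totals alone, the median of all genes for Veh vs WT moved from 0.07 to 0.65, and the calls over all genes from 6870 higher and 5997 lower to 11623 higher and 2684 lower. Against Veh, library totals gave 2459 higher and 9861 lower with anti-miR-21 (5072 and 5367 with TMM), and 1906 higher and 7389 lower with ACEi (3704 and 3372 with TMM). Against WT, they gave 7719 higher and 998 lower with anti-miR-21 (4203 and 3496 with TMM), and 8006 higher and 1345 lower with ACEi (4432 and 3972 with TMM). For Veh vs WT the log2 fold changes were then −0.17 for Cyba (adjusted p = 0.037) and −0.34 for Nox4 (adjusted p = 0.069), both below that median, while Cybb, Ncf1, Ncf4 and Rac2 were at 4.14 to 4.57. On log2(FPKM + 1) of the deposited FPKM, which are also scaled by library total, Nox4 was at −0.28 (limma, adjusted p = 0.13). On log2(FPKM + 0.1), Cyba was at −0.16 (limma, adjusted p = 0.052) and so lost its call. TMM-scaled levels are used for the rest of the text.

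**Figure D3:**
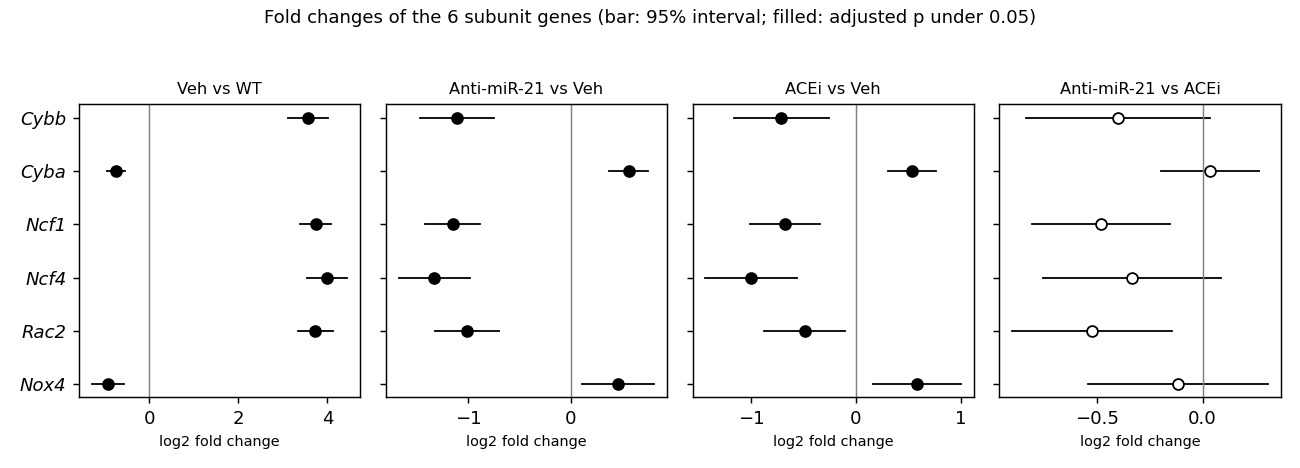
Log2 fold changes (x axis) of the 6 subunit genes in 4 comparisons by edgeR's quasi-likelihood test, with 95% intervals; filled points passed an adjusted p of 0.05. Cybb, Ncf1, Ncf4 and Rac2 lie between 3.56 and 4.0 for Veh vs WT and below 0 for both treatments, Cyba and Nox4 have the opposite signs, and no gene passed for Anti-miR-21 vs ACEi.

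Anti-miR-21 was compared with Veh to ask what the oligonucleotide changed in the diseased kidney. The 4 phagocyte genes fell to between 0.396 and 0.496 of their Veh level, and Cyba and Nox4 rose 1.48- and 1.38-fold. All 6 genes passed, where 59.2% of all genes tested were called (28.8% higher and 30.5% lower). Again 5 of the 6 separated the groups fully (36.4% of all genes), with Nox4 as the exception.

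Cybb had 14.5 to 28.8 CPM with anti-miR-21, with a median of 20.7 CPM, and its log2 fold change was −1.11 (SE 0.17, adjusted p = 1.8e-05). Ncf1 had 9.89 to 16.6 CPM, with a median of 11.5 CPM and a log2 fold change of −1.15 (SE 0.13, adjusted p = 3.7e-07). The treated mice lay below all Veh mice in both genes, and they spread more widely than the Veh mice relative to their mean.

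Ncf4 had 5.65 to 11.5 CPM, with a median of 6.98 CPM and a log2 fold change of −1.33 (SE 0.17, adjusted p = 1.3e-06). Rac2 had 19.01 to 31.8 CPM, with a median of 23.6 CPM and a log2 fold change of −1.01 (SE 0.15, adjusted p = 1.1e-05). In all 4 phagocyte genes A2 and A8 were among the 3 highest mice of the treated group.

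Cyba had 321 to 434 CPM with anti-miR-21, with a median of 355 CPM, above every Veh mouse, and a log2 fold change of 0.57 (SE 0.09, adjusted p = 2.4e-05), which was 0.22 (adjusted p = 0.0071) with library totals. Nox4 had 111 to 167 CPM, with a median of 138 CPM, which overlapped the Veh range. Its log2 fold change was 0.46 (SE 0.17, adjusted p = 0.023). Nox4 lost the call without A15 (0.40, adjusted p = 0.058), without the 4 mice rich in adipocyte markers (0.29, adjusted p = 0.27) and with library totals (0.11, adjusted p = 0.54).

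ACEi was compared with Veh to ask the same of ramipril, with the same Veh mice. The 4 phagocyte genes fell to between 0.5001 and 0.712 of their Veh level, and Cyba and Nox4 rose 1.45- and 1.496-fold. All 6 genes passed, where 40.2% of all genes tested were called (21% higher and 19.1% lower), and 5 of the 6 separated the groups fully (38.6% of all genes), with Rac2 as the exception.

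Cybb had 27.0, 26.3 and 32.0 CPM in the ACEi mice A11, A13 and A23, all below the Veh mice. Its log2 fold change was −0.71 (SE 0.22, adjusted p = 0.013), and the adjusted p was 0.056 without A11 and 0.067 without A13. Ncf1, with 15.3, 17.3 and 20.2 CPM, was also below all Veh mice, with a log2 fold change of −0.67 (SE 0.16, adjusted p = 0.0025).

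Ncf4 had 8.33, 8.91 and 11.4 CPM, below all Veh mice, with a log2 fold change of −1.0 (SE 0.21, adjusted p = 0.00090). Rac2 had 24.4, 32.2 and 48.1 CPM, and A23 lay within the Veh range. Its log2 fold change was −0.49 (SE 0.19, adjusted p = 0.042), a call that was lost without any 1 of the 6 Veh mice (adjusted p from 0.052 without A20 to 0.094 without A16), without A11 (0.28), without A13 (0.16) and without the mice rich in adipocyte markers (0.13). With flow cell as a term it was −0.45 (adjusted p = 0.060), within flow cell B alone −0.82 (adjusted p = 0.077), and without the count filter −0.47 (adjusted p = 0.065).

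Cyba had 341, 386 and 352 CPM in the ACEi mice, above all Veh mice, with a log2 fold change of 0.53 (SE 0.11, adjusted p = 0.00075). It was 0.26 (adjusted p = 0.012) with library totals, and 0.57 (adjusted p = 0.057) within flow cell B alone. Nox4 had 138, 175 and 135 CPM, also above all Veh mice, with a log2 fold change of 0.58 (SE 0.20, adjusted p = 0.027). Without A13 it was 0.46 (adjusted p = 0.15), without the mice rich in adipocyte markers 0.43 (adjusted p = 0.18), and with library totals 0.30 (adjusted p = 0.20).

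The direct comparison of Anti-miR-21 with ACEi asks whether the treatments differed. None of the 6 genes passed, where 0.584% of all genes tested were called (0.363% higher and 0.221% lower). At an unadjusted p under 0.05 there were 2, Ncf1 (log2 fold change −0.48, 95% interval −0.81 to −0.15, adjusted p = 0.16) and Rac2 (−0.52, −0.90 to −0.14, adjusted p = 0.19), and DESeq2 called 0. Cybb was at −0.40 (−0.84 to 0.04), Ncf4 at −0.33 (−0.76 to 0.09), Nox4 at −0.12 (−0.54 to 0.31) and Cyba at 0.03 (−0.20 to 0.27). For Cybb the interval reaches down to 0.559 of the ACEi level, so these data, with 3 ACEi mice, do not show that the treatments act alike.

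Neither treatment brought the phagocyte genes to the WT level. All 9 treated mice lay above all WT mice in Cybb, Ncf1, Ncf4 and Rac2. Against WT, these 4 genes were higher by log2 fold changes of 2.45 to 2.72 with anti-miR-21 and of 2.85 to 3.24 with ACEi, all passing the threshold. In these comparisons 43.7% and 47.7% of all genes tested were called (23.9% and 25.2% higher), and the groups did not overlap for 23.8% and 46.1%.

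Cyba did not pass against WT with either treatment. It was at −0.18 with anti-miR-21 (SE 0.09, adjusted p = 0.13) and at −0.22 with ACEi (SE 0.12, adjusted p = 0.13), and with library totals both turned to 0.05 and 0.10. Nox4 was lower than in WT with anti-miR-21, at −0.47 (SE 0.18, adjusted p = 0.037), and at −0.35 (SE 0.21, adjusted p = 0.19) with ACEi. The former rested on the setting. It was −0.29 (adjusted p = 0.16) without the WT mouse A6, the highest, −0.23 (adjusted p = 0.28) with library totals, −0.16 (limma, adjusted p = 0.46) on log2(FPKM + 1) and −0.40 (limma, adjusted p = 0.071) on TMM-scaled FPKM. The adjusted p was 0.057 without the count filter, 0.051 with 10 counts in every mouse and 0.052 with only these groups in the fit. It was 0.065 to 0.091 without any 1 of the WT mice A3 and A14 and the anti-miR-21 mice A2, A8 and A10. Within flow cell A alone the log2 fold change was −0.73 (adjusted p = 0.0045).

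In whole kidney, fewer cells of a type and less RNA per cell cannot be told apart, so the 4 phagocyte genes were set beside leukocyte markers. The 6 macrophage markers all rose in Veh, by log2 fold changes of 1.02 to 4.41, where 39% of all genes tested were higher. Their summed level went from 136 to 148 CPM in WT to 742 to 881 CPM in Veh. It was 321 to 500 CPM with anti-miR-21 and 410 to 501 CPM with ACEi. Neutrophils carry the same oxidase. The 6 neutrophil markers summed to at most 3.10 CPM in any mouse, and 3 of them (Ly6g, Mpo and Retnlg) did not pass the filter on counts. Of the 3 that were tested, 1 was called higher in Veh than in WT, near the 39% of all genes. The part of neutrophils in these values was not tested.

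The ratio of a subunit gene to these markers depended on the list. As a share of the 6 macrophage markers, Cybb was at 2.77% ± 1.16 (SD, n = 5) in WT and 5.91% ± 0.59 (SD, n = 6) in Veh, a ratio of means of 2.13. For Ncf1, Ncf4 and Rac2 that ratio was 2.40, 2.93 and 2.42. Csf1r, the receptor of a macrophage growth factor, made up 78.0% of the WT sum, from 71.7% to 85.0%, but 28.4% of the Veh sum, and it had the smallest rise of the 6 markers.

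Without Csf1r the ratio of Veh to WT turned to 0.664 for Cybb, 0.701 for Ncf1, 0.878 for Ncf4 and 0.741 for Rac2. Against the 3 pan-leukocyte markers (Ptprc, Coro1a and Laptm5), which rose from between 23.2 and 39.5 CPM to between 341 and 389 CPM, it was 1.08, 1.155, 1.42 and 1.199. The change of the phagocyte subunits beyond that of leukocyte markers thus had no fixed sign. Their part in the result was not tested.

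Markers of other cells moved with the phagocyte genes as well. All 5 T cell markers rose in Veh (median log2 fold change 3.62), 4 of 5 fell with anti-miR-21 and 0 of 5 passed with ACEi, both against Veh, and their sum was 4.09 ± 1.46 CPM in WT (SD, n = 5), 16.1 ± 6.83 in Veh (SD, n = 6), 9.51 ± 2.22 with anti-miR-21 (SD, n = 6) and 14.8 ± 3.70 with ACEi (SD, n = 3). Of 4 B cell markers 3 rose in Veh, 1 fell with anti-miR-21 and 0 passed with ACEi, and their sum was at most 6.97 CPM in any mouse. All 4 fibroblast markers rose in Veh (median 1.99), and 3 of 4 fell with anti-miR-21 and 1 of 4 with ACEi. Over all genes tested, 39% were called higher in Veh than in WT, 30.5% lower with anti-miR-21 and 19.1% lower with ACEi. The 1 of 4 fibroblast markers with ACEi and 1 of 4 B cell markers with anti-miR-21 were near these shares. In all 4 fibroblast markers, however, every ACEi mouse lay below every Veh mouse, with log2 fold changes from −0.74 to −0.44. Groups did not overlap in that comparison for 38.6% of all genes. With anti-miR-21, 2 of 4 did not overlap with Veh, where 36.4% of all genes did not. The part of T cells, B cells and fibroblasts in the values of the subunit genes was not tested.

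Within the 15 Col4a3-/- mice the shares lay closer together. Cybb was at 5.91% ± 0.59 of the 6 macrophage markers in Veh (SD, n = 6), 5.42% ± 0.68 with anti-miR-21 (SD, n = 6) and 6.31% ± 0.15 with ACEi (SD, n = 3), and the ranges of Veh and the treated groups overlapped. Of the pan-leukocyte markers it was at 12.8% ± 1.72, 12.03% ± 1.59 and 12.1% ± 0.92. Ncf4 was at 5.20% ± 0.59, 4.20% ± 0.47 and 4.05% ± 0.24 of the pan-leukocyte markers, and all 3 ACEi mice lay below all 6 Veh mice. Of the 6 macrophage markers, Ncf4 was at 2.43% ± 0.42, 1.89% ± 0.22 and 2.11% ± 0.19. There the ACEi mice (1.90% to 2.27%) lay within the Veh range (1.83% to 2.91%), so the separation depended on the list.

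**Figure D4:**
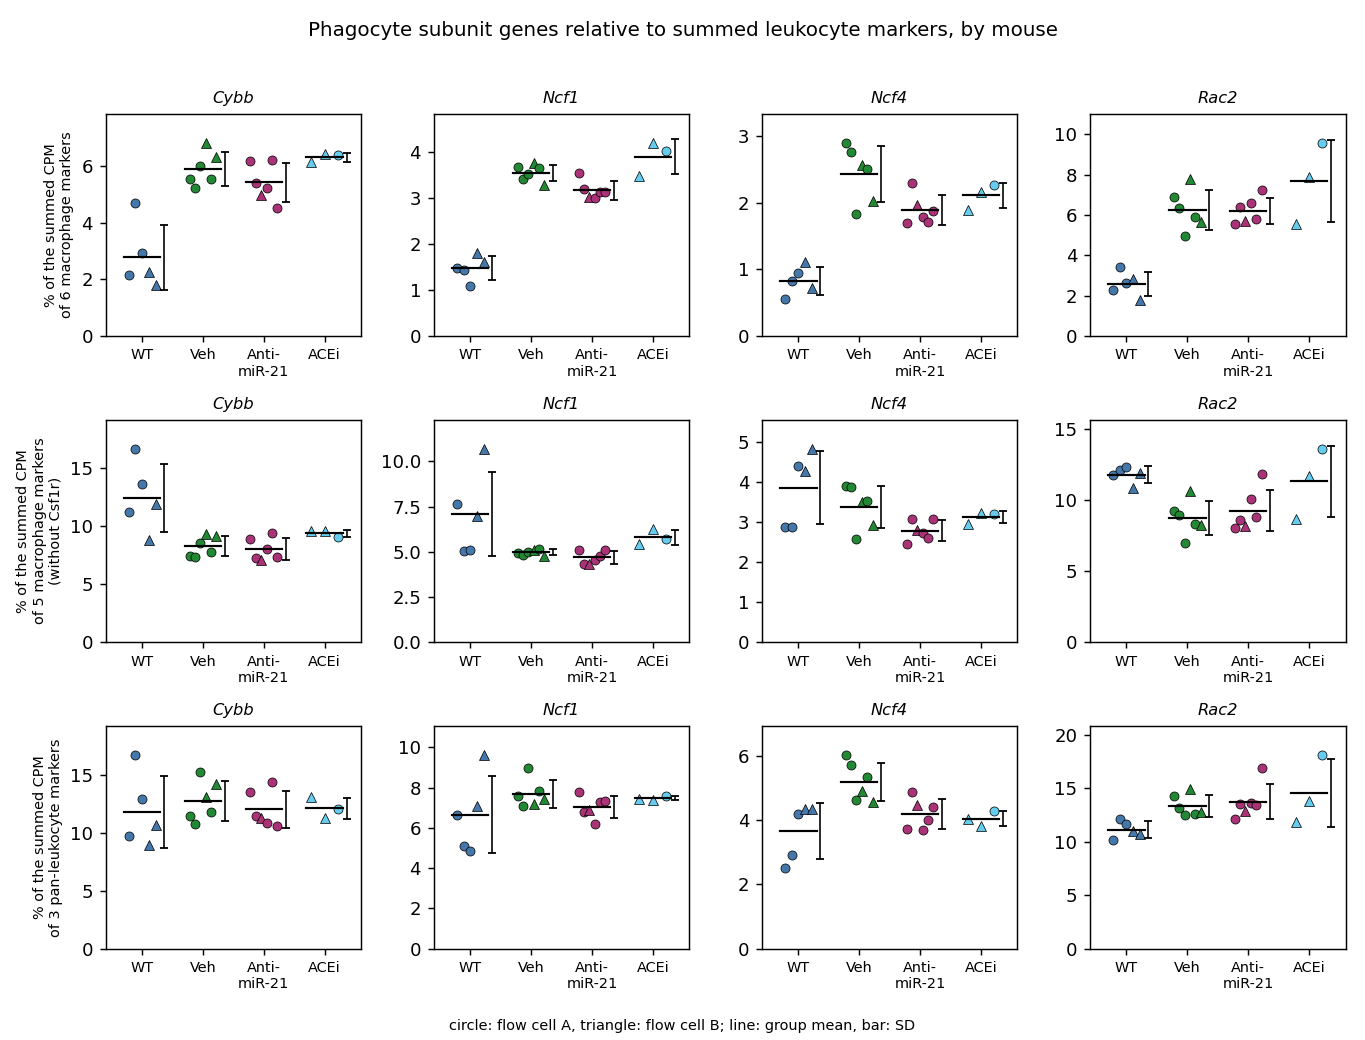
CPM of Cybb, Ncf1, Ncf4 and Rac2 as a percentage of the summed CPM of 6 macrophage markers (top row), the same list without Csf1r (middle row) and 3 pan-leukocyte markers (bottom row), 1 point per mouse, with the group mean (line) and SD (bar). The WT means are the lowest in the top row, where the Veh mean of Cybb is 2.13 times the WT mean; this ratio is 0.664 in the middle row and 1.08 in the bottom row.

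Nox4 and Cyba were set beside the 6 proximal tubule markers, since Nox4 is mainly a gene of that segment. All 6 markers fell in Veh, by log2 fold changes from −1.87 to −2.94, where 34% of all genes tested were lower. Their sum dropped from between 12825 and 16520 CPM to between 1418 and 3938 CPM. It was 7020 to 11733 CPM with anti-miR-21 and 7268 to 9498 CPM with ACEi. Nox4 fell less than any of these markers in Veh.

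As a share of the proximal tubule sum, Nox4 was thus higher in Veh, at 4.75% ± 1.77 (SD, n = 6), than in WT, at 1.32% ± 0.39 (SD, n = 5), and the groups did not overlap. It was 1.55% ± 0.23 with anti-miR-21 (SD, n = 6) and 1.86% ± 0.02 with ACEi (SD, n = 3). For Cyba the shares were 2.95% ± 0.28 in WT, 11.9% ± 4.48 in Veh, 4.12% ± 0.40 with anti-miR-21 and 4.53% ± 0.40 with ACEi. The part of the tubule cells in these values was not tested.

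Among further catalytic and organiser genes of the family, Rac1 and Noxo1 passed the filter on counts. The genes Nox1, Nox3, Noxa1, Duox1, Duox2, Duoxa1 and Duoxa2 did not, with at most 20 counts in any mouse, and Nox3 had 0 in all 20, which allows up to 3 counts per library.

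Rac1, the ubiquitous relative of Rac2, had 228 ± 10.6 CPM in WT (SD, n = 5), 235 ± 7.54 in Veh (SD, n = 6), 235 ± 7.38 with anti-miR-21 (SD, n = 6) and 237 ± 10.4 with ACEi (SD, n = 3). Its log2 fold change between Veh and WT was 0.05 (95% interval −0.06 to 0.15, adjusted p = 0.42). With library totals it was 0.63, beside a median of 0.65 over all genes. Noxo1, the organiser of the Nox1 enzyme, had 1.51 to 3.25 CPM in WT and 7.004 to 15.1 CPM in Veh (log2 fold change 2.08, SE 0.21, adjusted p = 1.5e-08).

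Among 7 assembly partners and chaperones, 4 rose (Sh3pxd2b, Sh3pxd2a, Hvcn1 and Cybc1) and 3 fell (Poldip2, P4hb and Rap1a) in Veh against WT, where 39% of all genes were higher and 34% lower. Sh3pxd2b, a scaffold of the p47phox family known from podosomes, had the largest change, with a log2 fold change of 3.01 (SE 0.16, adjusted p = 3.1e-12). Poldip2, which binds p22phox and raises Nox4 activity, was at −0.92 (SE 0.06, adjusted p = 2.9e-11), close in value to Nox4 at −0.93. Hvcn1, the proton channel that balances the charge moved by the phagocyte enzyme, was at 1.42 (SE 0.15, adjusted p = 3.8e-08). It fell by 0.65 on the log2 scale with ACEi (SE 0.17, adjusted p = 0.0049), and was at −0.29 (SE 0.13, adjusted p = 0.074) with anti-miR-21, where 9 alternatives gave a call.

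Cybc1 was the 1 gene of all the pathway lists that differed between the treatments. It had 21.4, 22.5, 21.2, 21.9 and 21.3 CPM in the WT mice A3, A6, A14, A17 and A18, and 35.0 to 40.6 CPM in Veh, with a median of 36.8 CPM. With anti-miR-21 it had 26.2 to 30.6 CPM, with a median of 29.1 CPM, and in the ACEi mice A11, A13 and A23 it had 36.1, 35.3 and 38.6 CPM. Anti-miR-21 mice thus lay below all Veh and all ACEi mice and above all WT mice, while ACEi mice lay within the Veh range.

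The log2 fold change of Cybc1 was 0.79 for Veh vs WT (SE 0.05, adjusted p = 8.4e-11), −0.39 for Anti-miR-21 vs Veh (SE 0.05, adjusted p = 1.7e-06) and −0.03 for ACEi vs Veh (SE 0.06, adjusted p = 0.73). The direct difference, Anti-miR-21 vs ACEi, was −0.36 (SE 0.06, adjusted p = 0.0072), and 8.99% of all genes tested did not overlap in this comparison. The adjusted p was 0.11 without the ACEi mouse A23 and 0.052 with library totals. With library totals, ACEi vs Veh was −0.30 (adjusted p = 0.014), beside a median of −0.32 over all genes. Cybc1 is the gene with the seed match shown above. Its RNA was higher in Veh than in WT mice, and lower in the mice given the miR-21 inhibitor than in Veh mice. By the study's RT-PCR, miR-21 itself was raised in Veh and close to the WT level with anti-miR-21. Cybc1 RNA thus moved in the same direction as miR-21 in these comparisons, and whether miR-21 acts on it was not tested. Genes on the opposite strand overlap Cybc1, Rac1 and Hvcn1.

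The upstream activators of the phagocyte oxidase, 9 genes that load Rac or phosphorylate p47phox and their regulators, all rose in Veh, where 39% of all genes did. Their median log2 fold change was 2.44, beside 0.07 over all genes. Prkcb, a protein kinase C that phosphorylates p47phox, had the largest, 3.66 (SE 0.23, adjusted p = 3.1e-11), and Vav1, an exchange factor that activates Rac in blood cells, was at 3.64 (SE 0.23, adjusted p = 4.1e-11). All 9 fell with anti-miR-21, where 30.5% of all genes did (median −0.80, beside −0.04 over all genes), and 4 of 9 (Vav1, Pik3cg, Arhgdia and Arhgdib) fell with ACEi, where 19.1% did (median −0.44, beside −0.05), while none passed in the direct comparison.

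The enzymes that supply NADPH were mixed. Of 6 genes, 2 rose in Veh (Pgd and G6pdx, of the pentose phosphate pathway) and 3 fell (Me1, Idh1 and Taldo1), where 73% of all genes were called (39% higher and 34% lower), and Tkt was at 0.09 (SE 0.07, adjusted p = 0.26). Me1, cytosolic malic enzyme, changed most, from 631 to 733 CPM in WT to 88.1 to 218.2 CPM in Veh (log2 fold change −2.29, SE 0.17, adjusted p = 3.6e-10). It rose by 1.62 (SE 0.17, adjusted p = 1.4e-07) with anti-miR-21 and by 1.55 (SE 0.19, adjusted p = 1.5e-05) with ACEi on the log2 scale, both against Veh.

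**Figure D5:**
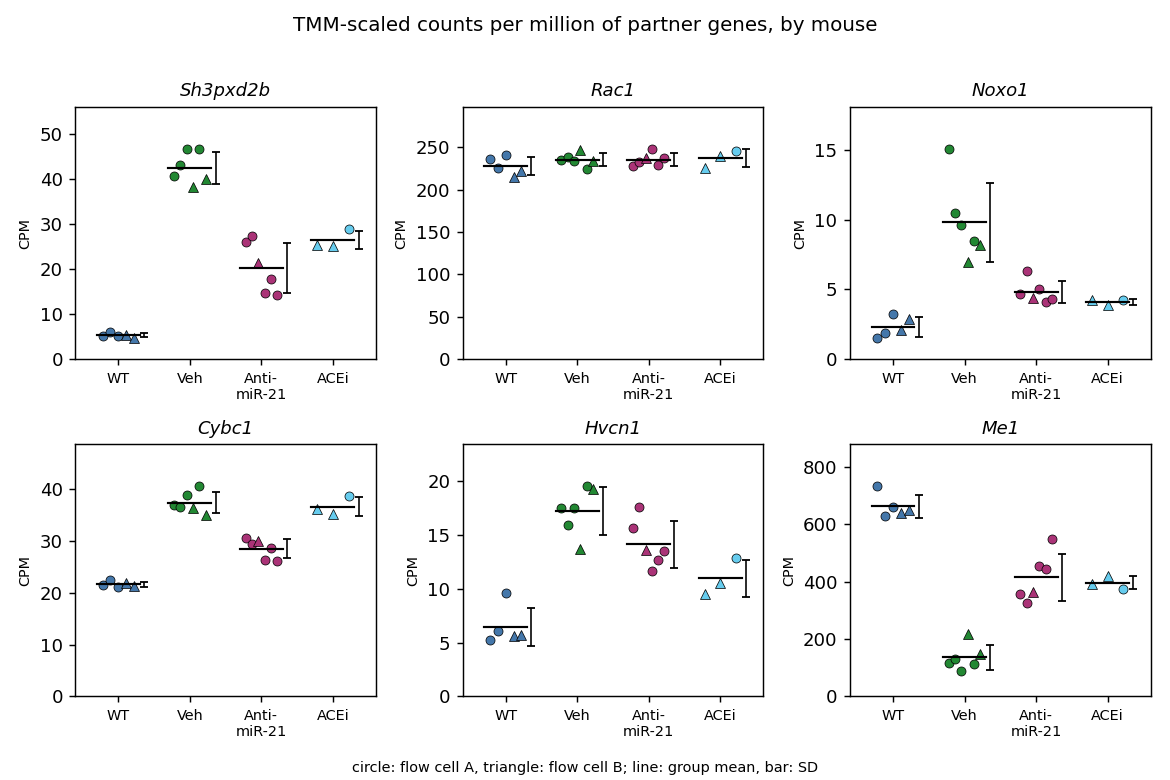
CPM (linear axis from 0) of Sh3pxd2b, Rac1, Noxo1, Cybc1, Hvcn1 and Me1 by mouse in the 4 groups, with the group mean (line) and SD (bar). Rac1 stays between 215.2 and 248 CPM in all 20 mice, and Cybc1 is at 26.2 to 30.6 CPM in the Anti-miR-21 mice but at 35.3 to 38.6 CPM in the ACEi mice.

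The genes were last compared within groups, as the correlation r of deviations of log2 CPM from the group mean over the 20 mice. These values are a description, since all genes share the libraries and their scaling. The 6 pairs of phagocyte genes had r from 0.34 (Cybb with Ncf1) to 0.71 (Ncf4 with Rac2). Spearman's rho ranged from 0.31 to 0.77, and r without the 2 mice farthest from the median from 0.33 to 0.67. Cybb with Nox4 was at 0.41, and at −0.11 without those 2 mice. Cyba with Cybb had the lowest value of all 15 pairs, −0.64, although their proteins form 1 complex, and Nox4 with Cyba had −0.04.

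The genes most like each subunit gene within groups, over the same 20 mice, were listed by r. For Cybb they were Col6a2 (0.91), Epb41l2 (0.91), Mpeg1 (0.90), Ncbp3 (0.90) and Col6a1 (0.90), which include a macrophage marker and the collagen VI genes of fibroblasts. For Rac2 they included Tlr1 (0.90), Hcls1 (0.90), Slamf9 (0.88) and Cd52 (0.87), most of them genes of blood cells.

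For Ncf4 they were Tmsb4x (0.91), Arhgdib (0.90), Spi1 (0.89), Btg1 (0.89) and Apobec3 (0.88), and Spi1 encodes PU.1. For Ncf1 they were Cd101 (0.85), Lox (0.83), Ms4a6d (0.82), Pou2f2 (0.81) and Slc17a7 (0.79). Cyba was most like Asna1 (0.93), Thap7 (0.92), Spr (0.92), Glmp (0.91) and Ldha (0.91), and Nox4 most like Ildr2 (0.88), Ugt2b34 (0.88), Clic5 (0.87), Phc1 (0.86) and Ceacam1 (0.86). No gene was in the first 5 of more than 1 subunit gene.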

How the data were processed

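Paired-end reads of mouse kidney RNA were aligned by the authors to GRCm38 (OmicSoft aligner). The authors deposited, for each Ensembl gene, an estimated count (expected count), not normalized between libraries, and FPKM values, normalized by the authors for length and library total. Per the deposited library table, each library has a count of its alignments. The FPKM annotation also deposited by the authors gives exon lengths for 5 of the 6 genes, but not for Cybb. The FPKM table has 3 columns that match no mouse of these groups and were not used.

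Counts were rounded (29.1% of positive values were not whole). Low genes were removed by filterByExpr by group, with a minimum count of 10 and a minimum total of 15, and TMM factors were computed. This filter does not ask for 10 counts in every mouse, which was a separate alternative. The main test was edgeR's quasi-likelihood test (edgeR 4.0.16, R 4.3.3), with 1 coefficient per group over all 20 mice, 6 contrasts and Benjamini-Hochberg adjustment at 0.05. FPKM were used for levels and, as log2(FPKM + 1) and log2(FPKM + 0.1), for limma 3.58.1. DESeq2 1.42.0, other scalings and filters, flow cell and each mouse left out in turn were alternatives. The steps were tested on simulated data in which few genes changed, as many up as down. That run cannot show how the scaling behaves where most genes differ between groups, as for Veh vs WT. Figures were drawn with matplotlib 3.10.9 in Python 3.11.15.

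The 6 genes, the gene lists and the marker lists were chosen with earlier results of these data known. Genes named beside the members were Rac1, Hvcn1 and Cybc1, the gene of each list with the largest change past the threshold in Veh vs WT and in Anti-miR-21 vs ACEi, and the 5 genes most like each member. Noxo1, Vav1, Poldip2, Csf1r and others given with values were named after their values were seen. Each library is a separate mouse, so p-values and intervals measure the spread between mice. Protein sequences were not used here. Some results of the same rules are not reported here.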

Additional observations from a re-analysis of the deposited data

Results flagged for a closer look

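Cybc1 was singled out because the treatments differed in a direct test. Its log2 fold change between Anti-miR-21 and ACEi was −0.36 over 9 mice (adjusted p = 0.0072 by edgeR), and each of the 6 Anti-miR-21 mice lay below each of the 3 ACEi mice. It was called in Anti-miR-21 vs Veh and not in ACEi vs Veh.

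Hvcn1 in WT had 1 mouse far from the others. A14 had 9.59 CPM, and its gap to the next mouse was 0.75 of the range of the 5 WT mice on the log2 scale. Chance alone would give such a gap in about 1 in 20 of the groups checked, and 39 were checked.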

How the results depend on the processing

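With 3 ACEi mice and a scaling that differed between groups, the changes of Nox4, Cyba in part, and of Rac2 with ACEi were the least firm. No paired analysis was possible because each replicate name belongs to 1 mouse. Of 828 values of the 6 genes under the alternatives, 782 kept their direction and side of the threshold or stayed uncalled, 44 lost a call and 2 gained one. Among all genes named from the lists and the members, 40 values that were uncalled in both settings changed sign. The alternatives on TMM-scaled FPKM, on mice rich in adipocyte markers and on the macrophage list were chosen after seeing the data.

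The number of subunit genes called for ACEi vs Veh went from 6 to 3 in flow cell B alone, and lay between 3 (without A13) and 6 as each mouse was left out. On leaving out each mouse it ranged from 5 to 6 for Anti-miR-21 vs Veh, from 4 to 6 for Anti-miR-21 vs WT, from 4 to 5 for ACEi vs WT, and was 6 for Veh vs WT, which fell to 4 at the lowest over the other settings. For Anti-miR-21 vs ACEi it was 0 in every setting run. Nox4 lost its call for Anti-miR-21 vs WT without A3, A6 or A14 (WT) or without A2, A8 or A10, and gained one for ACEi vs WT without A18 (−0.48, adjusted p = 0.045). Cyba gained a call for Anti-miR-21 vs WT without A12 (−0.24, adjusted p = 0.049).

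Rac1 was uncalled in the main fit for both treatments against Veh. With library totals it was called lower, at −0.34 for Anti-miR-21 vs Veh and −0.26 for ACEi vs Veh, beside medians of −0.38 and −0.32 over all genes. With log2(FPKM + 1) it was −0.35 and −0.26, and with log2(FPKM + 0.1) −0.35 and −0.27. These scalings also moved the median of all genes.

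Without the count filter, 27232 genes were tested instead of 17622. The share of all genes called then changed by over 1.5 times, to 37.3% for Anti-miR-21 vs Veh, 23.7% for ACEi vs Veh, 25.9% for Anti-miR-21 vs WT, 28.7% for ACEi vs WT and 0.242% for Anti-miR-21 vs ACEi, and the number called was also lower in each of these. In flow cell B alone it was 9.06% for ACEi vs Veh and 29.7% for ACEi vs WT, with fewer mice. Without the mice rich in adipocyte markers it was 26.7% for ACEi vs Veh and 0.365% for Anti-miR-21 vs ACEi. For Anti-miR-21 vs ACEi it was 1.12% with 10 counts in every mouse, 2.47% with DESeq2, 0.312% with log2(FPKM + 0.1), and 0.117% to 1.22% as each mouse was left out (0.117% without A23, 0.139% without A11 or A13, 0.239% without A15, 0.284% without A22, 0.369% without A10 and 1.22% without A8, against 0.584%).

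Nox4 over Cybb per length moved to 32.9 (WT), 1.47 (Veh), 4.30 (Anti-miR-21) and 3.59 (ACEi) with FPKM recomputed from counts. Veh over WT, relative to markers, moved with the pan-leukocyte list to 1.08 (Cybb), 1.155 (Ncf1), 1.42 (Ncf4) and 1.199 (Rac2), and without Csf1r to 0.664, 0.701, 0.878 and 0.741. With library totals the median r was 0.62 instead of 0.50 among phagocyte pairs, −0.18 instead of −0.34 between these and Nox4 or Cyba, and −0.35 instead of −0.04 for Nox4 with Cyba. The cause of these moves was not tested. Flow cell A alone was not run for ACEi, which has 1 library there.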
